A study of Mus musculus with 8 samples.

Results

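The 10 genes described here encode the enzymes that build ceramide and turn it into sphingomyelin or glucosylceramide, read in RNA sequencing of cells labelled as mouse calvarial osteoblasts. They were taken by symbol from a table of 25239 genes, and 10 of 10 were present and expressed enough to test. They are Sptlc1, Sptlc2, Kdsr, Cers2, Cers5, Cers6, Degs1, Sgms1, Sgms2 and Ugcg. The study compared primary cells from the skulls of mice whose genotype is given as KO(OSX-SphK2) with cells of littermate controls given as WT, with 4 libraries in each group, numbered 1 to 4. Sphk2 encodes sphingosine kinase 2, and Osx is osterix, a regulator that osteoblast precursors need, so the label points to a deletion driven in that lineage. The labels give no age, no number of animals per library, no driver line by name and no test of the deletion.

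Sphingolipid synthesis begins at the endoplasmic reticulum, where serine palmitoyltransferase joins serine to a fatty acyl-CoA. The product is reduced, acylated by ceramide synthases and desaturated to ceramide, which the Golgi and the plasma membrane convert to sphingomyelin and the Golgi to glucosylceramide. Sphingosine kinases act further on, on the sphingosine released when ceramide is broken down. In bone, sphingomyelin metabolism is known from mineralizing vesicles, and in humans SGMS2 is known as a gene of an inherited skeletal fragility that includes the skull.

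The libraries held 14347495 to 19065421 counts. Sphk2 itself was at 69.7, 72.3, 72.1 and 131 CPM (the depth-scaled count of a gene in a library) in the libraries labelled knockout 1 to 4 and at 75.8, 64.2, 82.5 and 134 CPM in controls 1 to 4. Its log2 fold change came to −0.05 (SE 0.30, edgeR adjusted p = 0.9999), so the count of the targeted gene does not check the labels, and whole-gene counts would include reads outside a deleted part. The libraries are therefore called knockout-labelled. Markers of macrophages were abundant: all 15 of the list were expressed, and they summed to 30660 to 51250 CPM in knockout-labelled libraries and 30780 to 40770 CPM in controls. Lyz2 was the largest part of the sum, at 16420 to 34460 CPM, and was highest in knockout-labelled 4. Single markers of the list went opposite ways in number 4. In knockout-labelled 4 and control 4, Mrc1 was at 327 and 135 CPM, against 1058 to 1588 CPM elsewhere. Cd14 was at 875 and 730 CPM, against 81.2 to 166 CPM elsewhere. The 12 osteoblast markers, of which 9 were expressed enough to test, summed to 4157 to 15700 CPM in knockout-labelled libraries and 6432 to 16880 CPM in controls, and the osteocalcin gene Bglap was under 1 CPM except in knockout-labelled 1. That library was also far the highest for Ibsp (1082 CPM, at most 49.2 CPM elsewhere), Bglap2, Dmp1, Phex and the stromal marker Lum. Col1a1, Col1a2, Sp7, Runx2, Spp1 and Sparc were highest in other libraries. Numbers 1 to 3 were thus not alike in these markers. Both libraries numbered 4 stood apart from the rest of their group. Chi-square per degree of freedom between their counts and those of the others was 224 to 307, against 8.56 to 44.7 among numbers 1 to 3. The first principal component of all libraries carried 73.7% of the variance. The 9 osteoclast markers summed to 6659 CPM in knockout-labelled 4 and 10100 CPM in control 4, and to 141 to 234 CPM in the other 6 libraries. Mmp9 (3923 and 5067 CPM) and Acp5 (1699 and 3446 CPM) were the largest parts in knockout-labelled 4 and control 4. Nfatc1 was at 99.6 CPM in knockout-labelled 4, against 99.4 to 103 CPM in knockout-labelled 1 to 3. It was at 210 CPM in control 4, against 96.0 to 105 CPM in controls 1 to 3. The 8 markers of dividing cells summed to 652 to 1076 CPM in knockout-labelled libraries and 310 to 490 CPM in controls. Mki67 was the largest part of the sum in every library. Taken singly, Pcna (98.0 to 121 CPM against 64.5 to 105 CPM in controls) and Mcm2 (29.6 to 43.9 against 27.8 to 37.2 CPM) overlapped between the groups. The neutrophil list was carried by Mmp8, at 116 to 125 CPM in knockout-labelled 1 to 3 and 314 to 378 CPM in controls 1 to 3, and at 128 CPM in knockout-labelled 4 and 67.1 CPM in control 4. Its other 8 genes were at 3.35 CPM or less. In bulk RNA, a change in the share of a cell type and a change in RNA per cell cannot be told apart, and the part of macrophages, osteoclasts, neutrophil genes and dividing cells in the differences below was not tested.

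Per length of transcript, the means over 8 libraries formed 3 tiers. Degs1, the desaturase that finishes ceramide, and Cers2, the ceramide synthase for very long acyl chains, were highest, at 75.3 ± 7.4 and 58.2 ± 4.6 CPM per kb of exon (SD, n = 8). Cers5 (20.01 ± 4.08 CPM per kb), Cers6 (17.7 ± 3.5), Sptlc2 (15.2 ± 1.2), Ugcg (15.2 ± 5.6) and Sptlc1 (12.98 ± 2.01) formed a middle tier. The place of Ugcg in it depended on the group: it was at 12.4 CPM per kb in knockout-labelled 1 to 3, below Cers6 (17.6) and Cers5 (16.4), and at 21.7 in controls 1 to 3, above Cers6 (20.8) and Cers5 (19.5). In this tier each gene's range over the 8 libraries overlapped that of its neighbour in the order. Sgms2 (6.25 ± 3.72 CPM per kb), Sgms1 (4.25 ± 0.99) and Kdsr (3.51 ± 0.95) were lowest, again with overlapping ranges, and Sgms2, which reached 10.4 CPM per kb, overlapped Ugcg, which went down to 8.18. The ranges of Degs1 (64.3 to 84.0) and Cers2 (51.9 to 64.6 CPM per kb) barely met. With the longest annotated transcript as the length, Cers2 stood above Degs1, Ugcg above Sptlc2 and Sgms1 above Sgms2, so these 3 orders depend on the length used.

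Across all 8 libraries none of the 10 genes passed the threshold between genotypes, and 9 of 10 had a negative log2 fold change. The median of the 10 was −0.15, against −0.02 for all 12837 genes tested, of which 53.3% were negative. By edgeR's quasi-likelihood test with Benjamini-Hochberg adjustment over all genes, 0 of the 10 were called at an adjusted p under 0.05, as were 0% of all genes. At an unadjusted p under 0.05 there were 2 of the 10, Kdsr and Ugcg, and 4.92% of all genes. DESeq2 called 0 of the 10 and 1.38% of all genes (123 higher and 48 lower), and limma-voom called 0 of the 10 and 0 genes in all. With the library number as a block Ugcg fell, while the block called 1.18% of all genes lower and 1.31% higher. That pairing was taken from these same data and not from a label. The correlation r of unlike numbers reached 0.572, above the lowest r of same numbers, 0.460.

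**Figure D1:**
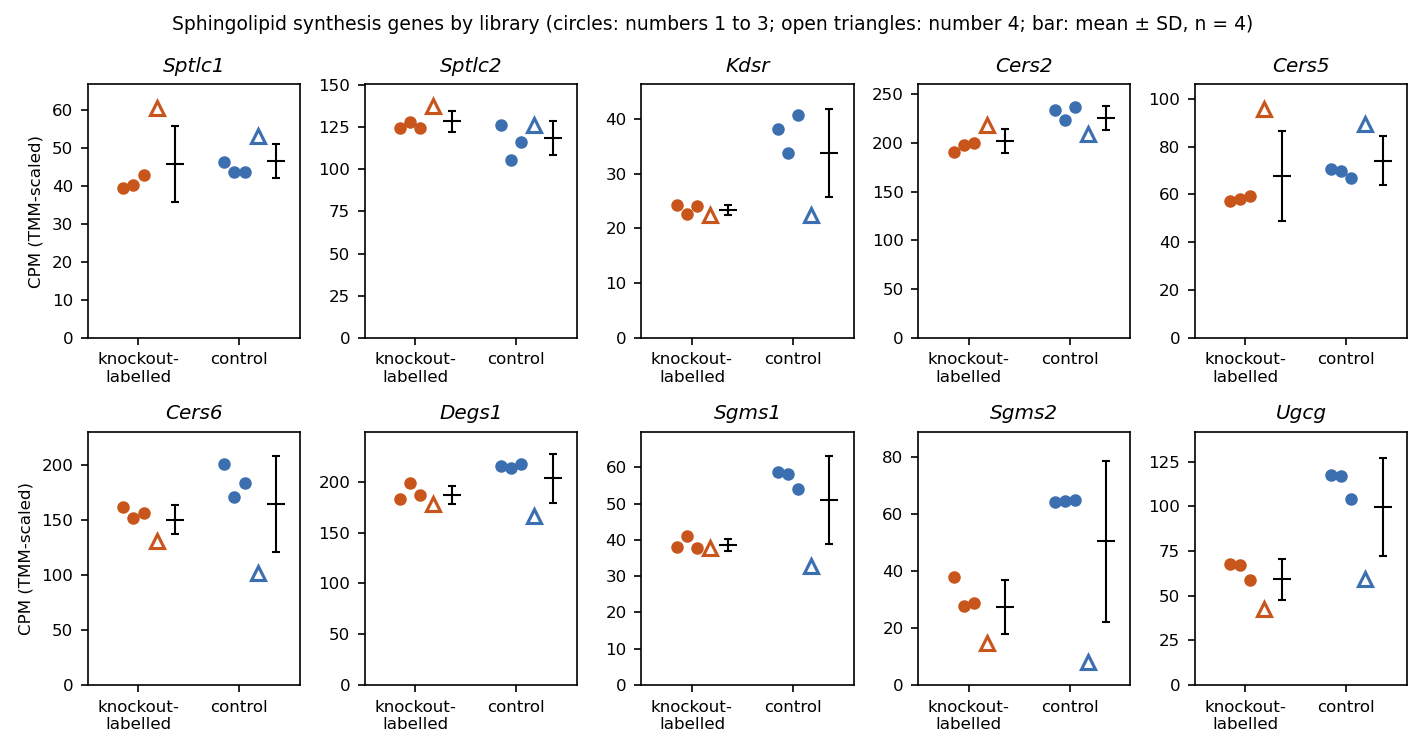
CPM of the 10 genes in each library, with knockout-labelled libraries left of controls in each panel; circles are numbers 1 to 3, open triangles number 4, and the bar is the mean ± SD (n = 4). For Sgms2 the controls 1 to 3 sit at 64.3 to 65.0 CPM and control 4 at 7.97 CPM, which makes the wide bar.

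The numbered pairs split in the same way for most of the genes. In pairs 1, 2 and 3 the knockout-labelled library was lower for 10, 9 and 9 of the 10 genes, and in pair 4 for 1 of 10, Ugcg. The median log2 ratio over all genes tested ranged from −0.0124 in pair 3 to 0.0143 in pair 4. Lower in 4 of 4 pairs were 1 of the 10 genes and 13.4% of all genes tested, so that count is near the background. Over all 8 libraries 0 of the 10 were lower without overlap between the groups, against 1.27% of all genes. Within numbers 1 to 3, 9 of 10 genes were lower without overlap between the groups, against 16.5% of all genes. The exception was Sptlc2. Scaled by library totals alone, Sptlc1 overlapped and Sptlc2 was higher without overlap, so the count depends on the scaling.

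**Figure D2:**
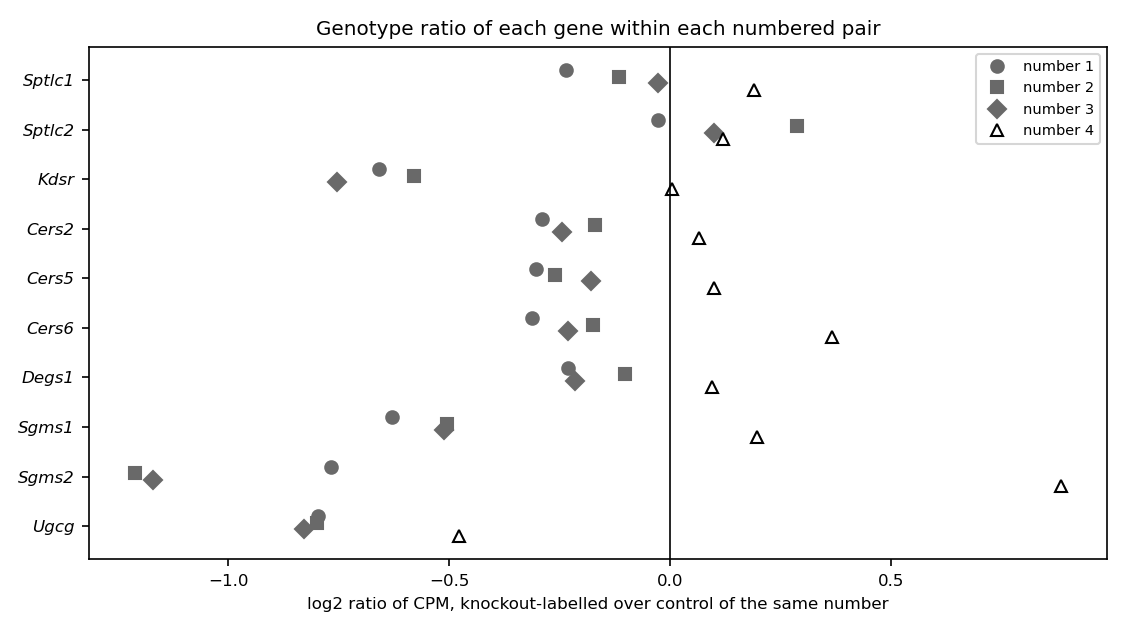
Log2 ratio of CPM, knockout-labelled over control, within each numbered pair, by gene; filled marks are pairs 1 to 3 and open triangles pair 4. Pairs 1 to 3 lie left of 0 for each gene but Sptlc2, and pair 4 lies left of 0 for Ugcg alone.

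Ugcg, the glucosylceramide synthase that starts the glycosphingolipid branch, was the 1 gene of the 10 that was lower in 4 of 4 pairs. Its level was 67.7, 67.3, 58.7 and 42.6 CPM in knockout-labelled 1 to 4 and 118, 117, 104 and 59.4 CPM in controls 1 to 4. Each knockout-labelled library was below the control of its number, and the groups overlapped only because control 4 was low. The means were 59.1 ± 11.7 CPM in knockout-labelled libraries and 99.6 ± 27.5 CPM in controls (SD, n = 4 each). The log2 fold change came to −0.75 (SE 0.25), a ratio of 0.593, with an adjusted p = 0.766 by edgeR and an exact two-sided permutation p = 0.0857, where the smallest possible is 0.0286. With number as a block it was −0.73 with an SE of 0.07 (95% interval −0.91 to −0.55, adjusted p = 0.0328). Dropping number 1, 2 or 3 from the groups ended that call, with adjusted p of 0.168 to 0.337 and log2 fold changes of −0.71 to −0.70. In numbers 1 to 3 alone Ugcg fell by 0.80 on the log2 scale without a block (SE 0.08, edgeR adjusted p = 0.000543).

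The promoters of Ugcg, of Kdsr, which is described below, and of Sptlc2, the 1 gene with a positive fold change, are shown as those of 3 genes the results turn on that have a single annotated start in RefSeq, which Sptlc1, Cers5, Cers6 and Degs1 also have. They cover 250 bases before to 50 after that start on GRCm38.p6. The windows are chr4:59189300-59189599 on the plus strand for Ugcg, chr1:106759693-106759992 on the minus strand for Kdsr and chr12:87388306-87388605 on the minus strand for Sptlc2. Capitals mark the matches, on either strand, to GGGCGG (GC box) or CCAAT.
Ugcg: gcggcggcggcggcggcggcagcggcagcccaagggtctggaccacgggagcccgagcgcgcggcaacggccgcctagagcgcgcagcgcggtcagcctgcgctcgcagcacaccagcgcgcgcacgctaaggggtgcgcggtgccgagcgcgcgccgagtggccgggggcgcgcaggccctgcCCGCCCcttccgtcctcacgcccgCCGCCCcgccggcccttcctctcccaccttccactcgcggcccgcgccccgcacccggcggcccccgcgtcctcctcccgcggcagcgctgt
Kdsr: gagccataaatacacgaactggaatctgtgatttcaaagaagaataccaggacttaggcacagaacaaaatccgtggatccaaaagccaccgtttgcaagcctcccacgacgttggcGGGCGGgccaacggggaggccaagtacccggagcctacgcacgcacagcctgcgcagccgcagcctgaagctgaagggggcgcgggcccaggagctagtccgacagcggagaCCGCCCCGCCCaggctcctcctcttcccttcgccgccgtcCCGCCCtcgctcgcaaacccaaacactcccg
Sptlc2: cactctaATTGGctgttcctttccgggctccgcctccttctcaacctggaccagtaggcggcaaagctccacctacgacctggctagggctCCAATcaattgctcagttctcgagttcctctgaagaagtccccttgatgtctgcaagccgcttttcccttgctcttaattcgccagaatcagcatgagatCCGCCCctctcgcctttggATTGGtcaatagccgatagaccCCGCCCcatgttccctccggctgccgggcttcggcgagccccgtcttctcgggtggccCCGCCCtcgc
The Ugcg window held 2 GC boxes, Kdsr 4 and Sptlc2 3, with 2 of those in Kdsr sharing 1 base. Sptlc2 also held 3 CCAAT matches, while Ugcg and Kdsr held 0. Searches on both strands for CACGTG (E-box) and TGACTCA (AP-1 site), and for TGACGTCA (CRE) and TATAAA, found no match in these 3 windows. Of 32851 mouse promoter windows of this length, 35.7% held a GC box and 37.4% CCAAT, 7.15% CACGTG, 5.20% TGACTCA, 1.79% TGACGTCA and 13.6% TATAAA. G and C made up 81.3% of the Ugcg window, 62.7% of Kdsr and 59.3% of Sptlc2, against a median of 52.7% over all windows. All 10 genes matched, with 19 windows in all, and 8 of 10 had a GC box in at least 1 of theirs, 6 of 10 CCAAT, 4 of 10 CACGTG, 2 of 10 TGACTCA, 1 of 10 TATAAA and 0 of 10 TGACGTCA. A gene with several windows has more chances of a match than the single windows counted above. Matches are a description of the letters and were not tested for binding.

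The sphingomyelin synthases Sgms1, an enzyme of the Golgi, and Sgms2, which also works at the plasma membrane, both fell in numbers 1 to 3. Sgms2 stood at 37.8, 27.9, 28.8 and 14.7 CPM in knockout-labelled 1 to 4 and at 64.3, 64.7, 65.0 and 7.97 CPM in controls 1 to 4. In numbers 1 to 3 every knockout-labelled library was well below every control, and in number 4 the order was turned round, on counts of 202 in knockout-labelled 4 and 114 in control 4. The log2 fold change of Sgms2 came to −0.89 (SE 0.60) over all 8 libraries (edgeR adjusted p = 0.9999, exact permutation p = 0.486). It was −0.67 with an SE of 0.36 with the block (adjusted p = 0.370). Without number 4 it was −1.04 with an SE of 0.11 (95% interval −1.29 to −0.78, adjusted p = 0.000721), and mean CPM was 0.487 of control. Of all genes tested in numbers 1 to 3, 6.29% were called lower, against 6 of these 10.

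Sgms1 stood at 38.0, 41.0, 37.8 and 37.7 CPM in knockout-labelled 1 to 4 and at 58.7, 58.2, 53.9 and 32.9 CPM in controls 1 to 4. The knockout-labelled libraries were alike, while control 4 was below all of them. Its log2 fold change came to −0.40 (SE 0.19) over 8 libraries (edgeR adjusted p = 0.9999, exact permutation p = 0.143). It was −0.37 with an SE of 0.14 with the block (adjusted p = 0.217) and −0.55 with an SE of 0.07 in numbers 1 to 3 (adjusted p = 0.00150).

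Kdsr encodes the reductase of the step after serine palmitoyltransferase. It stood at 24.2, 22.6, 24.2 and 22.5 CPM in knockout-labelled 1 to 4 and at 38.2, 33.8, 40.8 and 22.4 CPM in controls 1 to 4, on counts of 309 to 722. Control 4 was level with the knockout-labelled libraries, and the other controls were above them. The log2 fold change came to −0.53 (SE 0.19) over 8 libraries (edgeR adjusted p = 0.810, exact permutation p = 0.143). It was −0.51 with an SE of 0.13 with the block (adjusted p = 0.101). In numbers 1 to 3 Kdsr fell by 0.66 on the log2 scale (SE 0.09, edgeR adjusted p = 0.00174), and mean CPM was 0.629 of control.

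The subunits of serine palmitoyltransferase, the entry enzyme, did not pass in any fit shown here. Sptlc2, the catalytic subunit, stood at 124, 128, 124 and 138 CPM in knockout-labelled 1 to 4 and at 127, 105, 116 and 127 CPM in controls 1 to 4, with groups that overlapped at this scaling. Its log2 fold change came to 0.12 (SE 0.10, 95% interval −0.12 to 0.35) over 8 libraries and 0.12 with an SE of 0.07 in numbers 1 to 3 (interval −0.05 to 0.28). Sptlc1, its partner, stood at 39.3, 40.2, 42.8 and 60.4 CPM in knockout-labelled 1 to 4 and at 46.3, 43.5, 43.6 and 53.0 CPM in controls 1 to 4. Both libraries numbered 4 were the highest of their group. The log2 fold change of Sptlc1 came to −0.03 (SE 0.16) over 8 libraries and −0.12 with an SE of 0.07 in numbers 1 to 3 (interval −0.28 to 0.03, adjusted p = 0.276). The intervals bound these differences and do not show the groups to be equal.

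The ceramide synthases had log2 fold changes nearer to 0 than those of Kdsr, Sgms1, Sgms2 and Ugcg, a contrast between genes that was not tested. Cers2, at 191, 198, 200 and 219 CPM in knockout-labelled 1 to 4 and 233, 223, 237 and 209 CPM in controls 1 to 4, fell in numbers 1 to 3 (log2 fold change −0.23, SE 0.06, edgeR adjusted p = 0.0263). The Cers2 call was lost in 7 of 9 settings that left out a further number or library, with adjusted p of up to 0.246. Its exons share 75 bases with Setdb1 and 144 with 6330562C20Rik, both on the other strand, and how counting treated strand is not stated in the labels. Cers5, which makes ceramides of palmitoyl chains, stood at 57.4, 58.1, 59.1 and 95.8 CPM in knockout-labelled 1 to 4 and at 70.8, 69.6, 66.9 and 89.4 CPM in controls 1 to 4. It fell in numbers 1 to 3 (−0.25, SE 0.06, adjusted p = 0.0222), and that call too was lost in 7 of the 9 settings, with adjusted p of up to 0.163. Cers6, of similar chain preference, stood at 161, 152, 156 and 131 CPM in knockout-labelled 1 to 4 and at 200.3, 171, 184 and 102 CPM in controls 1 to 4. It was at −0.24 (SE 0.07) in numbers 1 to 3 and did not pass there without the block (adjusted p = 0.0537), but passed with it (adjusted p = 0.00841). Over 8 libraries the 3 synthases were at −0.16, −0.13 and −0.13, with adjusted p = 0.9999 each, and with the block none of them passed.

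Degs1 stood at 184, 199, 187 and 178 CPM in knockout-labelled 1 to 4 and at 215, 213, 218 and 167 CPM in controls 1 to 4. In numbers 1 to 3 the groups did not overlap, but the gap was small. The log2 fold change came to −0.12 (SE 0.12) over 8 libraries (adjusted p = 0.9999) and −0.18 with an SE of 0.06 in numbers 1 to 3 (adjusted p = 0.0694). With the block in numbers 1 to 3 it passed (adjusted p = 0.0290), so that 8 of the 10 genes were called lower there against 11.9% of all genes.

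**Figure D3:**
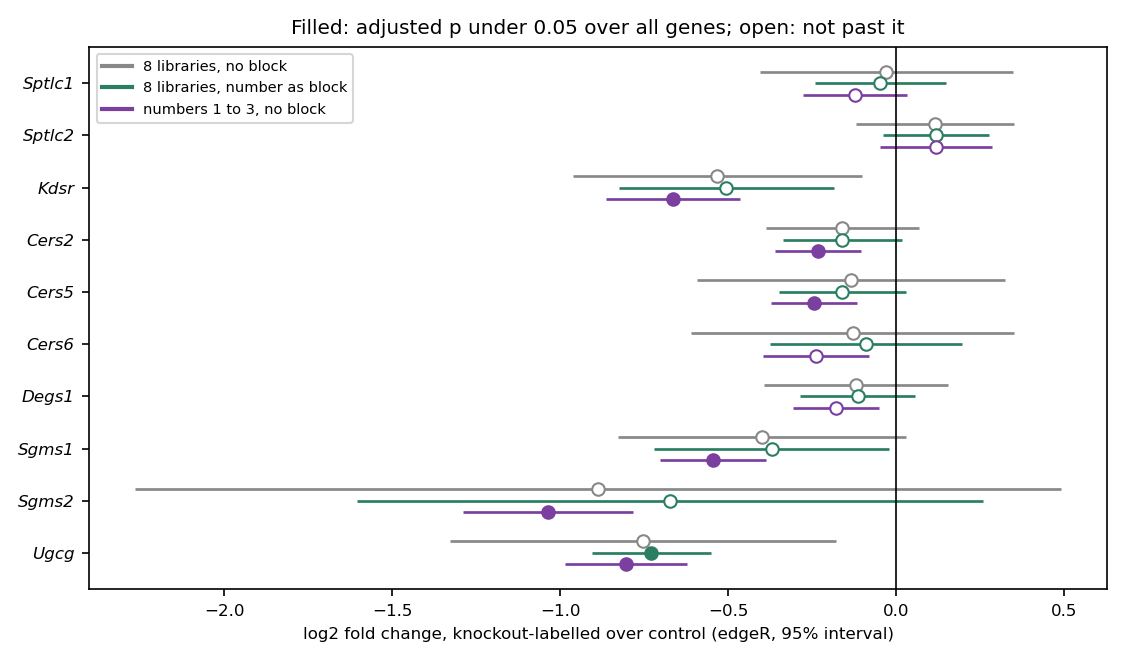
Log2 fold change, knockout-labelled over control, with 95% intervals for each gene in 3 edgeR fits; filled points passed an adjusted p of 0.05 over all genes tested. Ugcg is filled with the block at −0.73, and 6 genes are filled in numbers 1 to 3.

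An interaction term for number 4 against numbers 1 to 3, in a model with number as a block, passed the threshold for 4 of the 10 genes and for 11.6% of all genes. It called the genotype difference higher in number 4 for 6.33% of all genes and lower for 5.31%. The difference was 1.93 log2 units higher in number 4 for Sgms2 (SE 0.23, edgeR adjusted p = 0.000837), 0.74 for Sgms1 (SE 0.13, adjusted p = 0.00552), 0.67 for Kdsr (SE 0.17, adjusted p = 0.0278) and 0.61 for Cers6 (SE 0.11, adjusted p = 0.00542). For Ugcg it was 0.33 with an SE of 0.11 and did not pass (adjusted p = 0.0760), and for Sptlc2 it was 0.00 with an SE of 0.13. All 10 estimates were positive, that of Sptlc2 at 0.0014, as were 6521 of all 12837 genes tested. The term subtracts the difference in numbers 1 to 3, so its sign is not separate from the falls there. Number 4 is 1 library per genotype, so its own difference has no replicate, and the SEs and p-values come from the spread of numbers 1 to 3 alone. They do not show how far another such pair would differ. It was set apart with earlier results of these data known, and the fits with and without it share 6 libraries.

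Number 4 also differed in level within each genotype, in the same direction for several of the genes. Control 4 stood at 0.123 of the mean of controls 1 to 3 for Sgms2, 0.525 for Ugcg, 0.549 for Cers6, 0.578 for Sgms1 and 0.597 for Kdsr, and at 1.29 for Cers5. Knockout-labelled 4 stood at 0.467 of the mean of its own numbers 1 to 3 for Sgms2, 0.660 for Ugcg, 0.837 for Cers6, 0.969 for Sgms1 and 0.951 for Kdsr, and at 1.65 for Cers5. The gap between the sets of libraries was thus wider among controls for the genes that were lower. The sum of the osteoclast markers given above was higher in number 4 in both genotypes, though Nfatc1 of that list rose in control 4 alone. The part of these markers in the levels was not tested.

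Ratios within a library do not depend on how libraries are scaled. The makeup of the ceramide synthase transcripts was nearly the same in both genotypes within numbers 1 to 3. Cers2 made up 60.2% to 61.7% of the 3 synthases per exon length in knockout-labelled 1 to 3 and 59.9% to 62% in controls 1 to 3, and 58.8% in knockout-labelled 4 and 60.8% in control 4. Cers6 made up 14.6% in knockout-labelled 4 and 12.2% in control 4, against 19.3% to 21.3% in the other 6 libraries, and Cers5 made up the larger share in its place. Sgms1 made up 37.2%, 46.5%, 43.7% and 60.2% of the sphingomyelin synthase transcripts in knockout-labelled 1 to 4 and 35.0%, 34.7%, 32.9% and 70.9% in controls 1 to 4. In numbers 1 to 3 its share was higher in each knockout-labelled library than in any control. With the longest transcript as the length the shares were higher throughout, at 59.1% to 67.9% in knockout-labelled 1 to 3 and 54.4% to 56.8% in controls 1 to 3, in the same order. The ratio of Ugcg to both sphingomyelin synthases per exon length was 1.34 to 1.54 in knockout-labelled 1 to 3, 1.29 to 1.42 in controls 1 to 3, 1.38 in knockout-labelled 4 and 2.59 in control 4. The ratio of Ugcg to the 3 ceramide synthases was lower, at 0.127 to 0.151 in knockout-labelled 1 to 3 and 0.192 to 0.225 in controls 1 to 3, and at 0.0807 in knockout-labelled 4 and 0.122 in control 4.

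**Figure D4:**
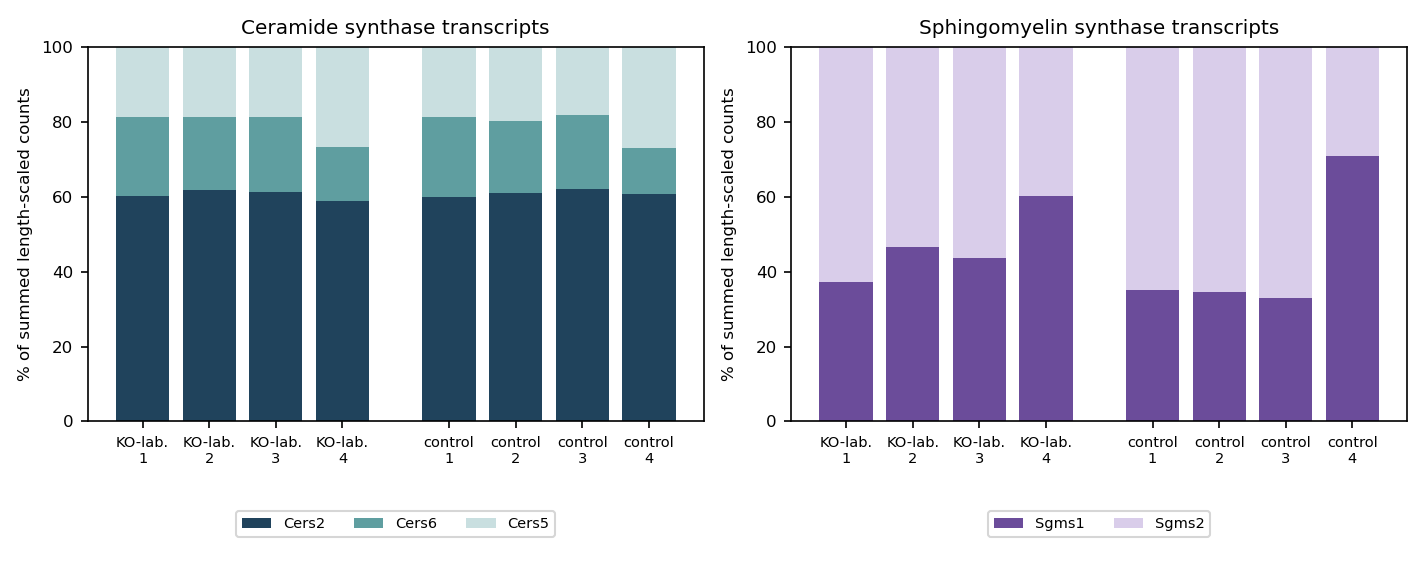
Shares of length-scaled counts among ceramide synthases (left panel) and sphingomyelin synthases (right panel) in each library, knockout-labelled (KO-lab.) left of controls. The Cers2 share lies between 58.8% and 62% in all 8 libraries, while the Sgms1 share is 60.2% in knockout-labelled 4 and 70.9% in control 4.

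The wider sphingolipid list, chosen by role and with earlier results of these data known, did not lean the same way. Of 55 genes, 45 were expressed enough to test, and 29 of these had a positive log2 fold change over 8 libraries, with a median of 0.07. Without the block edgeR called 0 of 45, and with it 2 of 45, against 2.49% of all genes. With the block B4galnt1, a ganglioside synthase downstream of Ugcg, fell (log2 fold change −0.38, SE 0.07, adjusted p = 0.0474), and Galc, the lysosomal galactosylceramidase, rose (0.31, SE 0.06, adjusted p = 0.0487). Both calls were lost when number 1, 2 or 3 was dropped, where no gene was called. B4galnt1 stood at 39.9 to 82.7 CPM in knockout-labelled libraries and 50.8 to 113 CPM in controls. Galc stood at 138 to 203 CPM in knockout-labelled libraries and 104 to 162 CPM in controls.

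In numbers 1 to 3, where 7.78% of all genes were called higher and 6.29% lower, 6 of the 45 rose and 2 fell. Without number 3 as well, 11 genes were called higher and 15 lower in the whole table. Of 10 glycosphingolipid breakdown genes 1 was called higher, Psap, the precursor of the saposins that aid the lysosomal hydrolases. Psap stood at 5565, 5239, 5671 and 11340 CPM in knockout-labelled 1 to 4 and at 4348, 3688, 4534 and 8985 CPM in controls 1 to 4. It was higher in the knockout-labelled library of each pair, and both libraries numbered 4 were far above the rest. Its log2 fold change in numbers 1 to 3 was 0.39 (SE 0.09, edgeR adjusted p = 0.0254), and with the block over 8 libraries 0.38 (SE 0.08, adjusted p = 0.0668).

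Among the partners of serine palmitoyltransferase, 1 of 5 passed in numbers 1 to 3. This was Sptssa, a small activating subunit, which rose by 0.36 (SE 0.10, adjusted p = 0.0422), while the inhibitor Ormdl1 was at −0.15 (SE 0.09). Of the other ceramide synthesis genes 0 of 3 passed. Cers4 stood at 60.5 CPM in knockout-labelled 4 and 26.4 CPM in control 4, against 7.07 to 9.21 CPM in the other 6 libraries, and Degs2 at 9.61 and 7.06 CPM, against 4.23 to 4.78 CPM elsewhere. Of the lipid transfer proteins Cptp rose in numbers 1 to 3 (0.35, SE 0.10, adjusted p = 0.0488) and Gltp did not pass (0.17, SE 0.07). Of 7 sphingomyelin breakdown genes 0 passed, with the neutral sphingomyelinase Smpd3 at 1.07 (SE 0.39) and the acid one Smpd1 at −0.08 (SE 0.09). Among the extension genes the sulfotransferase Gal3st1 had at most 55 counts and did not pass.

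Of ceramide breakdown and phosphorylation genes, ceramide kinase Cerk rose in numbers 1 to 3 (0.43, SE 0.09, adjusted p = 0.0172), and the ceramidase Acer2, with at most 29 counts, did not pass. In the sphingosine 1-phosphate branch Sphk1 stood at 3.72 to 5.56 CPM in knockout-labelled libraries and 6.46 to 9.14 CPM in controls. Its log2 fold change came to −0.75 (SE 0.21, edgeR adjusted p = 0.572), and it fell in numbers 1 to 3 (adjusted p = 0.0319). The lyase gene Sgpl1, whose product ends sphingolipid breakdown, rose there by 0.27 (SE 0.07, adjusted p = 0.0382). The phosphatase gene Sgpp1, named after its values were seen, rose by 0.21 (SE 0.06, adjusted p = 0.0449).

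**Figure D5:**
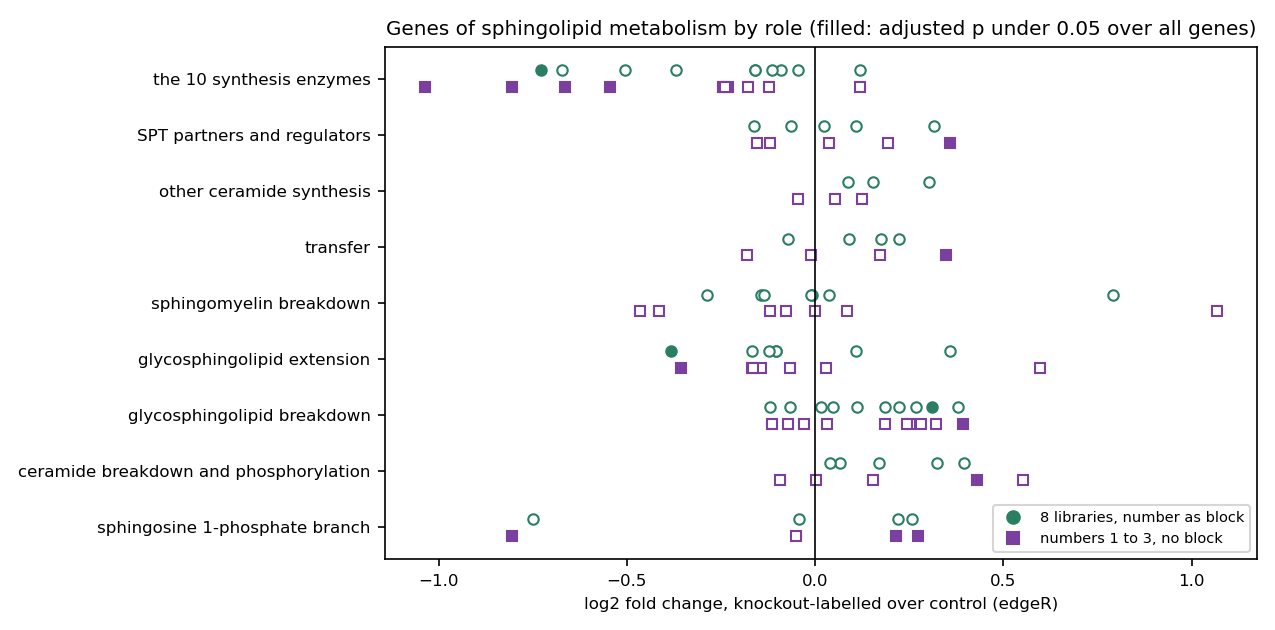
Log2 fold change, knockout-labelled over control, of the 10 synthesis genes (top row) and of 45 other sphingolipid genes by role (SPT is serine palmitoyltransferase), with number as a block (circles) and in numbers 1 to 3 (squares); filled marks passed an adjusted p of 0.05 over all genes. The top row reaches from −1.04 to 0.12, and the breakdown row for glycosphingolipids from −0.12 to 0.39.

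Across the 8 libraries the 10 genes did not follow a single pattern. Sptlc1 and Cers5, both highest in number 4, had a Pearson r of 0.969 in log2 CPM, and Cers6 and Sgms2, both lowest in control 4, also of 0.969. Between these pairs of genes r was −0.62 to −0.57. Within numbers 1 to 3 the same 4 genes had r of 0.700 to 0.924 among them, over 6 libraries that share the genotype difference. Among all other genes tested, the nearest in pattern to Ugcg was Cdh1 (r = 0.983 over 8 libraries and 0.974 within numbers 1 to 3). The nearest to Kdsr was Klra2 (0.988 and 0.986), to Sgms1 Abcb10 (0.994 and 0.995), to Sgms2 Arsk (0.990 and 0.965) and to Cers6 Msr1 (0.995 and 0.995). The nearest to Sptlc1 was Ankzf1 (0.986 and 0.923), to Sptlc2 Letmd1 (0.972 and 0.992), to Cers2 4833439L19Rik (0.959 and 0.967), to Cers5 Slc12a5 (0.994 and 0.979) and to Degs1 Itga8 (0.989 and 0.975). With 8 points taken from 12837 genes, such values describe shared library differences and carry no test.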

How the data were processed

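The authors deposited whole-number read counts per gene symbol for 8 libraries of polyadenylated RNA. The tools named by the submitters' processing notes are STAR 2.7.11b and featureCounts 2, with the builds mm10 and GRCm38. Strand, annotation and multiply aligned reads are not described in the labels. Groups and numbers came from the sample titles. Genes were filtered with filterByExpr (12837 kept), scaled with TMM and tested with edgeR 4.0.16 (quasi-likelihood, robust, R 4.3.3), with Benjamini-Hochberg adjustment over all genes tested and a threshold of 0.05. SEs are the log2 fold change over the root of the F statistic. CPM used TMM-scaled library sizes, log2 CPM a prior count of 2, and lengths came from GENCODE M21 on GRCm38. DESeq2 1.42.0, limma 3.58.1 voom and other scalings and filters were alternatives. Code was tested on simulated data.

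Pairs of libraries within a group differed beyond sampling noise (chi-square per degree of freedom of at least 8.56), so each counted as 1 sample. Animals per library are not stated, so the p-values reflect only how these libraries vary, in part perhaps technically. With group means removed, r across genes between libraries of the same number was 0.460 to 0.829, all above the minimum of 0.1, so number was taken to pair them, from the data and not a label. Unlike numbers reached 0.572. Within numbers 1 to 3 same numbers gave 0.161 to 0.376 and unlike numbers −0.26 to −0.02. Removing group means pulls unlike numbers negative when same numbers are positive, so that contrast adds little. Named were the 10 genes, Sphk2, the wider-list genes past the threshold with or without the block plus the 2 of smallest unadjusted p per role, and the nearest gene by Pearson r. Some genes of the wider list are not reported here and were left out of its counts. The members and lists were chosen with earlier results of these data known.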

Additional observations from a re-analysis of the deposited data

Results flagged for a closer look

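In groups of 4 libraries, 52 gene and group combinations were checked for a library whose gap to its nearest neighbour exceeded Dixon's 95% critical value as a share of the group's range, and 14 met this, 13 of them by number 4. The nominal rate of the rule, about 1 in 20, holds for independent groups. These combinations share the same 8 libraries, and the share over all genes was not computed. The count is therefore not read as a result about these genes. Knockout-labelled 4 was far the highest of its group for Sptlc1 (60.4 CPM) and Cers5 (95.8 CPM), and control 4 far the lowest for Degs1 (167 CPM) and Sgms2 (7.97 CPM). Knockout-labelled 2 was the highest of its group for Sgms1 at 41.0 CPM, where the other 3 were within a narrow range. Among the wider list number 4 was far the highest for Cers4 (60.5 CPM in knockout-labelled 4 and 26.4 CPM in control 4), Degs2 (9.61 CPM in knockout-labelled 4 and 7.06 CPM in control 4) and B4galnt1 (82.7 CPM in knockout-labelled 4 and 113 CPM in control 4). Psap was far the highest in number 4 (11340 CPM in knockout-labelled 4 and 8985 CPM in control 4), and Gltp lowest in knockout-labelled 4 at 282 CPM.

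The genotype difference in number 4 was set apart from that in numbers 1 to 3 by the edgeR interaction term for 6 of the genes named, where 11.6% of all genes passed. Of these, 4 were among the 10 synthesis genes. Of the 45 genes tested of the wider list the term was called higher for 5 and lower for 1, against 6.33% and 5.31% of all genes. Of the wider list Col4a3bp, Smpdl3a, Smpdl3b and Asah1 also passed, at 0.47, 0.44, 1.16 and 0.64. The difference was higher in number 4 by 0.67 log2 units for Kdsr, 0.61 for Cers6, 0.74 for Sgms1, 1.93 for Sgms2 and 1.25 for Cers4. For Cerk it was −0.43. Number 4 has 1 library per genotype, so the term rests on the spread of numbers 1 to 3, and its sums of osteoclast markers, of 6659 CPM in knockout-labelled 4 and 10100 CPM in control 4, were not tested as to their part in these differences.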

How the results depend on the processing

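Over 8 libraries without a block, edgeR called 0 genes higher and 0 lower. With the replicate block, 168 were higher and 151 lower, of which 1 of the 10 synthesis genes, Ugcg, was lower. DESeq2 called 123 higher and 48 lower, with 0 of the 10. Leaving out 1 library gave 0 to 25 higher and 0 to 13 lower, with 0 of the 10, and the nonzero counts came without control 4 (25 and 13) and without knockout-labelled 4 (17 and 7). Without number 4, 1005 were higher and 812 lower, with 6 of the 10 lower, and with the block 1593 and 1539, with 8 of the 10. With the block but without number 1, 2 or 3, 0 were called. Leaving out a further number or library from numbers 1 to 3, chosen after seeing the data, gave 11 to 1131 higher and 15 to 986 lower, with 1 to 7 of the 10 lower. The count of 1 came without number 3: Ugcg passed in 9 of 9 such settings, Kdsr, Sgms1 and Sgms2 in 8 of 9 each, Cers2, Cers5 and Cers6 in 2 of 9 each, and Degs1, Sptlc1 and Sptlc2 in 0 of 9. The cause was not tested.

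Of the 10 genes, 9 kept their direction under all 31 alternatives. Sptlc1, at −0.03, ranged from −0.19 to 0.035 when 1 library was left out, turning positive without knockout-labelled 1, 2 or 3 or control 4, and was 0.015 with the block without number 1. Scaling by library totals, by DESeq2 size factors or by upper quartiles, no filter, a stricter one (50 counts in 4 libraries), no robust shrinkage and limma-voom gave no call among the 10. By library totals Sptlc2 reached the smallest possible exact permutation p, 0.0286 (knockout-labelled 15.7 to 16.2, controls 12.9 to 15.5 CPM per kb). Sptlc1 then overlapped in numbers 1 to 3, with knockout-labelled 3 at 12.4 and control 3 at 12.1 CPM per kb. The share of all genes without overlap at that scaling was not computed. Counts of 114 to 4411 per library put depth as a limit mainly on Sgms2 in number 4.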
